A study of Mus musculus with 6 samples.

Results

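The genes described here are those of the nuclear-encoded subunits of the 5 complexes of oxidative phosphorylation. They were taken by gene symbol, as 77 of the 33017 genes in the deposited count table: 37 genes of complex I, 4 of complex II, 8 of complex III, 12 of complex IV and 16 of complex V. The symbols had to follow the subunit naming of each complex (Nduf, Sdh, Uqcr, Cox and Atp5 names), names of pseudogenes were left out, and a gene needed at least 60 counts summed over all libraries. The table uses older symbols for the ATP synthase, such as Atp5b and Atp5a1 for its beta and alpha chains.

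Oxidative phosphorylation is the last stage of aerobic energy production. Complexes I to IV of the inner mitochondrial membrane pass electrons from NADH and succinate to oxygen, complexes I, III and IV pump protons, and complex V, the ATP synthase, uses the proton gradient to make ATP. The subunits come from both genomes: a small core is encoded by mitochondrial DNA, and all others are encoded in the nucleus and imported. In the intestine the absorptive cells of the villus are rich in mitochondria and spend much ATP on sodium-driven uptake of nutrients.

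Messenger RNA was sequenced from mouse small intestine in 6 libraries, 3 labelled control and 3 labelled model, in a series on simulated microgravity and radiation whose design text speaks of the effect of both factors together. The title also names a compound, CB001, but no library is labelled as given it, and no agent, dose or time is given for the model. Strain, sex, age and the stretch of intestine sampled are not given in the labels, nor is it said that each library is its own animal; the p-values therefore describe the spread between these libraries alone, and that spread may be technical. Library totals ranged from 35007515 to 45285564 counts. The question was whether transcripts of the respiratory chain and ATP synthase differed between control and model intestine. Levels are in CPM (counts per 1 M counts of the TMM-scaled library total), and means are given ± SD over n = 3 libraries per group. A log2 fold change above 0 means a higher fitted level in the model libraries, and SE is its standard error.

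Libraries stood apart in ways that their labels do not name. Control 3 alone held transcripts of the distal small intestine: the bile acid binding protein gene Fabp6 was at 1166 CPM there and at most 0.285 CPM in the other 5 libraries, and the bile acid transporter gene Slc10a2 was at 648 CPM against at most 4.6 CPM. Genes of the proximal small intestine were nearly missing from it, with the transcription factor gene Gata4 at 1.90 CPM against 214 to 255 CPM elsewhere and the fatty acid binding protein gene Fabp1 at 0.926 CPM against 822 to 1520 CPM. Model 1 was tilted towards short transcripts, with a Spearman rho of -0.42 between transcript length and the deviation from each gene's mean over 15586 genes (control 3 had 0.26, the other 4 libraries -0.08 to 0.19). Model 3 held pancreatic enzyme transcripts, at 5751 CPM summed over 6 markers against 4.75 to 27.1 CPM in the other libraries. Paneth cell markers summed to 20.9 CPM in control 2 and 84.0 CPM in model 1 against 736 to 5581 CPM elsewhere. Markers of absorptive cells (Vil1, Alpi, Anpep and Sis) were present in all libraries, at a summed 10530 to 14033 CPM, while Fabp2, also of this list, is listed at 0 throughout. Within that sum control 3 stood apart in both directions, with the phosphatase gene Alpi at 276 CPM against 2981 to 7417 CPM elsewhere and the aminopeptidase gene Anpep at 8570 CPM against 1973 to 3461 CPM. B cell markers summed to 36.3, 13.2 and 229 CPM in the controls and to 12.5, 19.1 and 144 CPM in the model libraries, highest in control 3 and model 3 and lowest in model 1 and control 2. The part of segment, pancreas, Paneth cell, absorptive cell and B cell transcripts in the results below was not tested.

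Nearly all subunit genes ordered the libraries alike, with control 3 lowest and model 1 highest. Of the 77 genes, 75 had a fold change above 0 (97.4%, where 48.2% of all 15904 tested genes did), with a median log2 fold change of 0.45 against -0.02 for all tested genes, yet none passed the test. In 74 of the 77 genes control 3 was the lowest of the 6 libraries (26.8% of all tested genes), and in 73 model 1 was the highest (28.5% of all tested genes). Both held for 72 genes, 93.5% of the members, against 16.6% of all tested genes. In no member did the groups separate, with all model libraries above all control libraries (4.73% of all tested genes) or all below (6.33%).

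**Figure D1:**
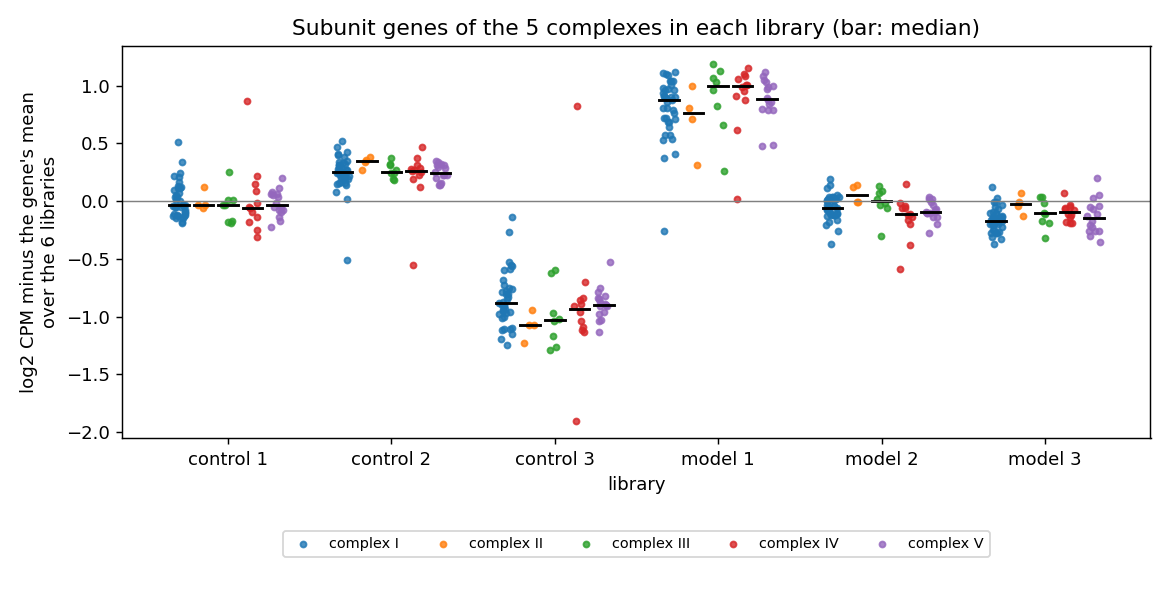
Deviation of each of the 77 subunit genes from its own mean over the 6 libraries (vertical axis, log2 CPM), by library (horizontal axis) and complex (colour), with black bars for the median of each complex. All 5 complexes lie low in control 3 and high in model 1, while the other 4 libraries lie between them.

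The summed level of the 77 genes was 15147, 18069 and 8013 CPM in control 1, 2 and 3 and 26116, 15005 and 14517 CPM in model 1, 2 and 3. Models 2 and 3 thus lay below controls 1 and 2, and the group means were 13743 ± 5173 CPM for the controls against 18546 ± 6560 CPM for the model libraries. The exact two-sided permutation test gave p = 0.6, where 3 libraries against 3 cannot go below 0.1, and 0.875 after Benjamini-Hochberg adjustment over the 5 summed values and shares tested. As a share of all counts of a library, which does not depend on TMM scaling, the members took 1.6%, 1.8% and 0.933% in the controls and 2.16%, 1.52% and 1.41% in the model libraries, in the same order of libraries. Since these are bulk samples, fewer mitochondria-rich cells and less subunit RNA per cell cannot be told apart.

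With edgeR's quasi-likelihood test, 0 of the 77 genes were called at a Benjamini-Hochberg adjusted p under 0.05 (0% of all tested genes were), and the smallest adjusted p among them was 0.851. None had an unadjusted p under 0.05, while 4.81% of all tested genes did. The alternative test of DESeq2 called 0.157% of all tested genes and 0 members. The differences were smaller than the spread between libraries allows this test to call.

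The size and the sign of the group difference rested on control 3 and model 1. Without control 3, 69 of 77 fold changes were above 0 (53.1% of all tested genes) and the median was 0.19. Without model 1, 51 were above 0 (47.5% of all tested genes) and the median was 0.03. Without both, a comparison of 2 against 2 libraries chosen after the data were seen, 0 of 77 were above 0 (47.6% of all tested genes) and the median was -0.23. Since control 3 was lowest and model 1 highest in 72 members, this comparison was bound to lower most fold changes. In that comparison 3 members had an unadjusted edgeR p under 0.05 (4.38% of all tested genes), and without control 3 alone none did (2.34%), with 0 called at an adjusted p under 0.05 in either.

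**Figure D2:**
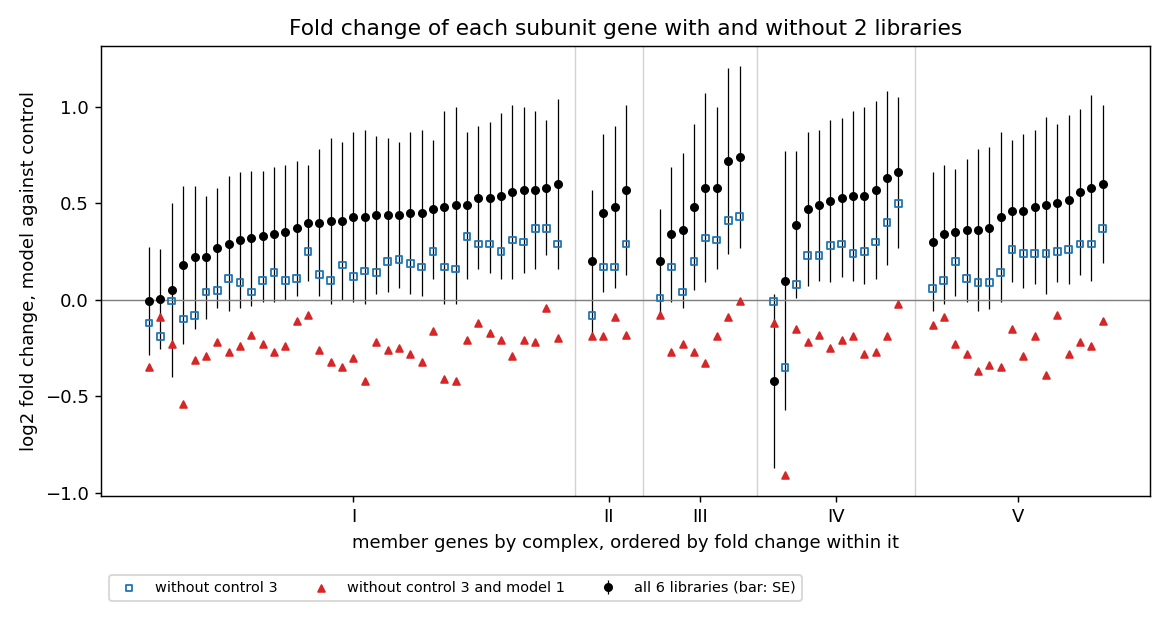
Log2 fold change of each subunit gene, model against control (vertical axis), by complex (horizontal axis), from all 6 libraries (black, with SE), without control 3 (blue squares) and without control 3 and model 1 (red triangles). With all libraries 75 of 77 points lie above 0, and without the pair of libraries all 77 lie below it.

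Transcript length moved with part of this pattern. Subunit mRNAs are short, with a median of 772 bases for the 76 members with a known length against 2787 bases for all tested genes, and among the members the deviation in model 1 fell with length (Spearman rho -0.44 across genes, which share the library and are not independent). After each library's trend with length over all genes was removed, the members' median deviation in model 1 went from 0.90 to 0.47 and that in control 3 from -0.91 to -0.70, so that model 1 stayed the highest and control 3 the lowest library. In the other 4 libraries these medians were between -0.02 and 0.21 after the removal. With this removal the members' median fold change was 0.32, and none was called. RNA quality itself was not tested.

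**Figure D3:**
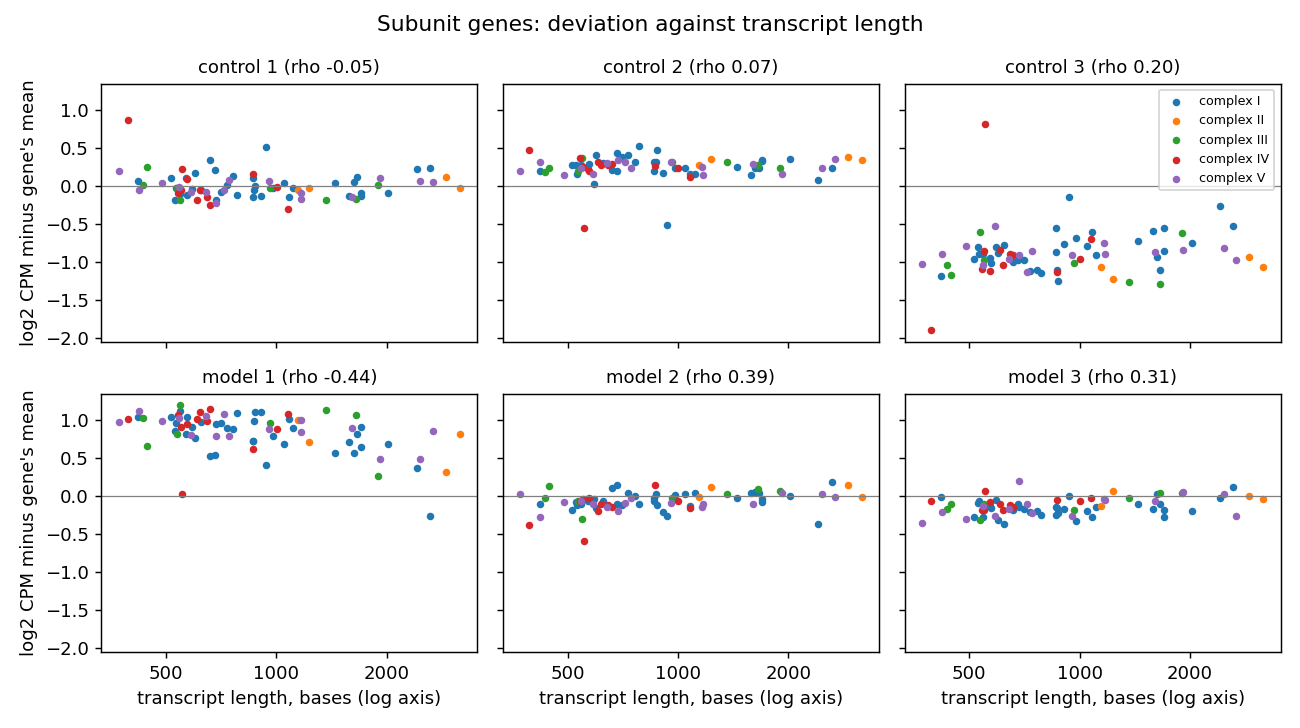
Deviation of each subunit gene from its mean (vertical axis, log2 CPM) against transcript length (horizontal axis, log scale), 1 panel per library, coloured by complex, with Spearman's rho for the members. In model 1 the shorter transcripts deviate most (rho -0.44), and in control 3 nearly all genes lie low at every length.

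Promoters of these genes are known to carry sites for the factors NRF1, GABPA and YY1, which drive respiratory genes. Promoters of members are shown where letters of 2 of these motifs occur, and any link of the letters to the order of the libraries was not tested. RefSeq promoters (GRCm38.p6, 250 bases before to 50 after the start) were found for 65 members, while Atp5a1, Atp5mpl, Cox6c, Ndufa2, Ndufa4l2, Ndufb9, Ndufs1, Sdhc, Uqcrb, Uqcrc2 and Uqcrq were among those with no entry. The NRF1 letters GCGCATGCG, searched on both strands, were in 8 of 65 members (12.3%) and in 1.95% of the 27025 genes with a promoter. The YY1 letters AAGATGGCG were in 7 members (10.8%) and in 1.64% of all genes. The ETS letters CCGGAAGT, which GABPA binds, were in 5 members (7.69% against 4.31%), and the letters CAAGGTCA of ERR alpha, the receptor encoded by Esrra, in 4 (6.15% against 1.76%). NRF1, ETS or YY1 letters were in 29.2% of the members and in 7.48% of all genes. All genes here are the 27025 with a promoter, whether or not they were among the tested genes. Shares among the tested genes alone were not computed. The deposited counts hold no measure of binding, and a match of letters is no site by itself. The stretches of 30 bases around the NRF1 letters (capitals, read on the strand of the gene) were as follows, with the position of the first capital counted from the start of the gene.
Atp5g2 (chr15:102671070-102671099, minus strand, position -42): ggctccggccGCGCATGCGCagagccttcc
Atp5k (chr5:108434430-108434459, minus strand, position -50): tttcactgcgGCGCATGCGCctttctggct
Atp5l (chr9:44920963-44920992, minus strand, position -241): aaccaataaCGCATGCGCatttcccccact
Cox6a1 (chr5:115349101-115349130, minus strand, position -162): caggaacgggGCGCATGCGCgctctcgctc
Ndufa11 (chr17:56717692-56717721, plus strand, position -60): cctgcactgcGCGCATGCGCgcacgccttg
Ndufa8 (chr2:36049328-36049357, minus strand, position -9): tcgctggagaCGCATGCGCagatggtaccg
Uqcr11 (chr10:80406807-80406836, minus strand, position -5): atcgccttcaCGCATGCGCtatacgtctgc
Uqcrc1 (chr9:108936668-108936697, plus strand, position 31): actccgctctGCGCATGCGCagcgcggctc

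In 7 of these 8 promoters the letters begin before the start, and in Uqcrc1 they begin at base 31 after it. In Uqcr11 they begin at position -5 and run across the start. Atp5g2, Atp5k and Atp5l encode chains of the membrane part of the ATP synthase, Cox6a1 a complex IV subunit, Ndufa8 and Ndufa11 accessory subunits of complex I, and Uqcrc1 and Uqcr11 parts of complex III. The YY1 letters, which contain an ATG, lay in another place: in 6 of 7 promoters they began 23 to 36 bases after the start, and only in Atp5j before it. Of these 7 genes 5 belong to complex I, and 2, Atp5j and Atp5j2, to complex V.
Atp5j (chr16:84835045-84835074, minus strand, position -88): aagtgtaggaAAGATGGCGgagtcttagct
Atp5j2 (chr5:145191499-145191528, minus strand, position 24): ccaggacttcAAGATGGCGtcactcggtga
Ndufa9 (chr6:126849096-126849125, minus strand, position 30): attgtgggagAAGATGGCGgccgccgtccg
Ndufc1 (chr3:51408914-51408943, minus strand, position 23): cctgcggaacAAGATGGCGccgtccgtagt
Ndufs4 (chr13:114388045-114388074, minus strand, position 36): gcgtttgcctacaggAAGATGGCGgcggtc
Ndufs6 (chr13:73328433-73328462, minus strand, position 34): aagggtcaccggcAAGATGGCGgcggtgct
Ndufs7 (chr10:80249463-80249492, plus strand, position 25): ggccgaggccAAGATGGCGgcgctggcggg

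Complex I, the NADH dehydrogenase, takes electrons from NADH. Of its 37 genes 36 lay above 0 and none was called, at a median log2 fold change of 0.43. The core subunit gene Ndufv1, which encodes the NADH-binding flavoprotein, was at 214, 233 and 91.3 CPM in control 1 to 3 and at 345, 203 and 184 CPM in model 1 to 3. Control 3 was lowest and model 1 highest, and the other 4 libraries overlapped (log2 fold change 0.44, SE 0.41, edgeR adjusted p = 0.852). Without control 3 and model 1 its fold change was -0.22.

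Ndufs1, the largest core subunit, which carries iron-sulphur clusters, departed from the rest of complex I in model 1. It was at 77.4, 77.5 and 45.5 CPM in control and at 54.8, 74.8 and 71.5 CPM in model libraries. Control 3 was again lowest, but model 1 was lower than the other 4 libraries, and the log2 fold change was 0.0055 (SE 0.26). With 2626 bases it is among the longest member transcripts, and it was the only member below its own mean in model 1, at a deviation of -0.26.

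Among accessory subunits of complex I, Ndufa6, Ndufa12 and Ndufb11 were named for their small p-values, though none was called. Ndufa6 averaged 101 ± 28.9 CPM in the controls against 151 ± 62.2 CPM in the model libraries (log2 fold change 0.58, SE 0.35, edgeR unadjusted p = 0.139). Ndufa12 measured 69.0 ± 24.1 and 99.6 ± 41.4 CPM, and Ndufb11 71.3 ± 21.9 and 106 ± 59.8 CPM. In each the model SD was larger than the control SD because model 1 stood high. Ndufb2 was the member of complex I with the lowest fold change, -0.0050 (SE 0.28), with 10.6, 9.62 and 7.53 CPM in control and 11.8, 7.05 and 8.89 CPM in model libraries. With RLE scaling it was 0.03.

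Ndufa4, named for complex I and now placed with complex IV, had 147, 168 and 80.6 CPM in control and 292, 138 and 143 CPM in model libraries (0.53, SE 0.39). Its relative Ndufa4l2, known as a hypoxia-induced gene, was the member nearest above the minimum, with 320 counts in all. It had 1.90, 0.909 and 1.19 CPM in control and 1.77, 1.09 and 1.31 CPM in model libraries, with control 1 highest and control 2 lowest, unlike the other members (0.05, SE 0.45). Per length, the mean level of Ndufa4 was 304 CPM per kilobase and that of Ndufa4l2 was 1.46, the highest and the lowest of the 36 complex I genes with a known length.

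Complex II, the succinate dehydrogenase, links the citric acid cycle to the chain and has 4 subunits, all encoded in the nucleus. All 4 had a fold change above 0, with a median of 0.47 and none called. Sdha, the flavoprotein that binds succinate, was at 841, 1002 and 402 CPM in control and at 961, 850 and 769 CPM in model libraries. Here control 2, not model 1, was the highest library, and the log2 fold change was 0.20 (SE 0.37), or -0.08 without control 3. Sdhb, the iron-sulphur subunit, followed the common pattern with 271, 339 and 134 CPM against 563, 281 and 258 CPM (0.57, SE 0.44). Sdhd, a membrane anchor, averaged 292 ± 141 CPM in the controls against 408 ± 107 CPM in the model libraries (0.48, SE 0.42). Sdha mRNA has 2900 bases and Sdhb mRNA 1142 bases, and Sdha deviated by 0.31 in model 1 while the complex II median was 0.76.

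Complex III, the cytochrome bc1 complex, passes electrons from ubiquinol to cytochrome c. Its 8 genes had a median fold change of 0.53, all 8 were above 0 and none was called. Uqcrc1, a core protein, had the highest fold change of all members, 0.74 (SE 0.47, edgeR adjusted p = 0.851), from 494, 670 and 227 CPM in control and 1164, 592 and 570 CPM in model libraries. Models 2 and 3 lay between control 1 and control 2, so the groups overlapped. Uqcrfs1, the Rieske iron-sulphur protein, had 277, 388 and 130 CPM in control and 682, 316 and 309 CPM in model libraries (0.72, SE 0.48). Without control 3 and model 1 the fold changes were -0.0070 for Uqcrc1 and -0.09 for Uqcrfs1.

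Complex IV, cytochrome c oxidase, reduces oxygen, and several of its nuclear subunits exist as isoforms of different tissues. Its 12 genes had a median of 0.52, with 11 above 0 and none called. Cox6a1, the broadly expressed isoform and the member of this complex with the highest level per length (921 CPM per kilobase), was at 514, 551 and 222 CPM in control and at 935, 476 and 457 CPM in model libraries (0.54, SE 0.44). Cox5a, a matrix-side subunit, measured 103 ± 39.3 and 148 ± 72.0 CPM, and Cox8a, a small membrane subunit, 216 ± 77.2 and 298 ± 133 CPM. Cox7a2l, which takes part in joining complexes III and IV into supercomplexes, had the smallest p of all members (edgeR unadjusted p = 0.127, adjusted p = 0.851). It was at 116, 156 and 88.5 CPM in control and at 303, 128 and 140 CPM in model libraries (0.66, SE 0.39), and without control 3 and model 1 its fold change was -0.02.

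Among the muscle-type isoforms, Cox6a2 is listed at 0 in all 6 libraries, and Cox8b had 40 counts in all, which put it nearest below the minimum. Cox6b2, known mostly from testis, had 2.63, 1.52 and 4.01 CPM in control and 2.28, 1.47 and 2.36 CPM in model libraries. It was the only member with its highest value in control 3, and it had the lowest fold change of all members (-0.42, SE 0.45).

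Cox7a1, the heart and muscle isoform of subunit 7a, was expressed beside the broadly expressed isoform Cox7a2. Cox7a2 was at 134, 195 and 84.6 CPM in control and at 354, 144 and 145 CPM in model libraries, the common order (0.63, SE 0.45). Cox7a1 had 31.2, 23.6 and 4.54 CPM in control and 34.4, 13.1 and 16.2 CPM in model libraries (log2 fold change 0.10, SE 0.67). Control 3 held 0.166 times the mean of controls 1 and 2, the lowest ratio of all members, whose median ratio was 0.489. Without control 3 and model 1 the fold change of Cox7a1 was -0.91 (SE 0.23, edgeR unadjusted p = 0.00411, adjusted p = 0.977), the lowest of all members and a value found after the data were seen. The other 2 members with an unadjusted p under 0.05 there were Ndufs5 (-0.54) and Ndufa3 (-0.42).

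The share of Cox7a1 in the counts of both isoform genes does not depend on library scaling. It was 18.8%, 10.8% and 5.09% in control 1 to 3 and 8.87%, 8.32% and 10.1% in model 1 to 3, with exact 95% binomial intervals from 18.0 to 19.7% in control 1 and from 4.41 to 5.84% in control 3 that cover counting error only. The controls spanned the whole range and the model libraries lay inside it, and the exact two-sided permutation test gave p = 0.7 (0.875 adjusted over the 5 values tested). Smooth muscle markers did not follow this share: their summed level was 1138, 1728 and 1946 CPM in the controls and 1138, 855 and 863 CPM in the model libraries, highest in control 3, where the share was lowest. Of 6 fat cell markers Ucp1 is listed at 0 in all libraries, and Adipoq had 505 counts in control 3 and at most 3 elsewhere. The list summed to 79.1 to 83.0 CPM in the controls and 106 to 201 CPM in the model libraries. Its 4 tested genes went both ways, with 2 fold changes above 0 and 2 below, from -4.27 to 1.32. The 5 skeletal and heart muscle markers summed to 13.5 to 65.7 CPM in control and 3.31 to 10.3 CPM in model libraries, highest in control 3.

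**Figure D4:**
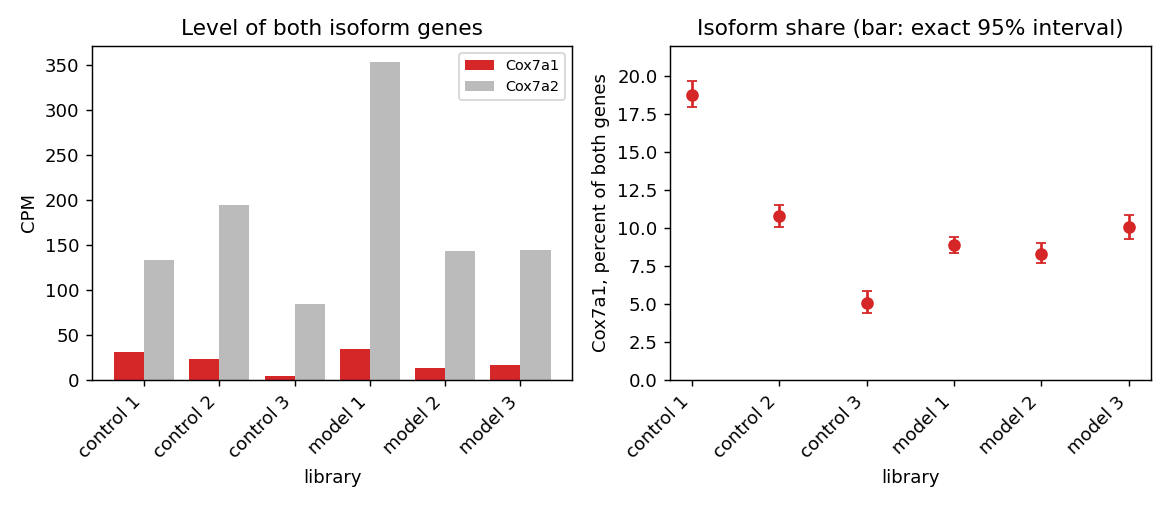
CPM of the isoform genes Cox7a1 and Cox7a2 in each library (left) and Cox7a1 as a percentage of the counts of both genes with exact 95% binomial intervals (right). The share runs from 5.09% in control 3 to 18.8% in control 1, and the 3 model libraries lie between 8.32% and 10.1%.

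Complex V, the ATP synthase, held the members with the most counts. Its 16 genes had a median of 0.46, and all 16 were above 0 with none called. Atp5b, the catalytic beta chain, had the highest level per length of all members (1113 CPM per kilobase) and was at 2216, 2288 and 1145 CPM in control and at 2897, 2114 and 2130 CPM in model libraries (0.34, SE 0.36, edgeR adjusted p = 0.856). Atp5a1, the alpha chain, measured 1679 ± 575 and 2065 ± 392 CPM. Atp5d, the delta chain of the rotor stalk, had 352, 414 and 201 CPM in control and 751, 349 and 362 CPM in model libraries (0.60, SE 0.41). Control 3 was lowest and model 1 highest in all 16 genes of this complex. Atp5o, the chain that joins the catalytic head to the outer stalk, had only 10.2 CPM per kilobase against a median of 245 for the complex, and is uncertain, since shared or overlapping reads were not tested. The inhibitor gene Atpif1, outside the members by its symbol, was at 61.4, 87.0 and 38.6 CPM in control and at 134, 56.8 and 54.8 CPM in model libraries.

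Of further genes of these complexes that the naming rule left out, 4 were examined, and these may not be all. Of the 4, 3 had a fold change above 0 and 2 had their lowest value in control 3. Cox4i1, the main isoform of subunit 4 of complex IV, was at 497, 615 and 269 CPM in control and at 1033, 447 and 461 CPM in model libraries (0.49, SE 0.45). Its lung isoform Cox4i2 was at 0.989 to 1.28 CPM in control and 1.27 to 1.94 CPM in model libraries. Ndufab1, the acyl carrier protein of complex I, had a fold change of 0.24 (SE 0.35). Dmac2l, also known as a factor of the ATP synthase, was at 10.6, 7.83 and 7.48 CPM in control and at 8.38, 8.87 and 6.27 CPM in model libraries (-0.14, SE 0.27), highest in control 1. Below the minimum were 8 genes, 5 of them listed at 0, among them Ndufa13, an accessory subunit of complex I, whose value of 0 was not read as absence of its transcript.

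The 13 subunits encoded by mitochondrial DNA summed to 29522, 51962 and 21001 CPM in control and 53605, 35490 and 44046 CPM in model libraries. Control 3 was lowest here too, but control 2 stood nearly as high as model 1, and model 3 lay above control 1. COX1, the catalytic subunit of complex IV, was at 13779, 24840 and 10100 CPM in control and at 25611, 17461 and 19679 CPM in model libraries (0.37, SE 0.46). CYTB of complex III, next to COX1 in mean CPM, had a log2 fold change of 0.34 (SE 0.44). Of the 13 genes 12 were above 0, with a median of 0.37 and none called. The sums rest on part of the list. COX2, COX3, ATP6, ND3, ND4L and ATP8 averaged only 0.417 to 44.7 CPM over all libraries, against 18578 CPM for COX1. Their levels are uncertain, since shared or overlapping reads were not tested. The ratio of summed nuclear to summed mitochondrial CPM was 0.513, 0.348 and 0.382 in control and 0.487, 0.423 and 0.330 in model libraries, a spread within each group that covered the difference between the group means (exact two-sided permutation p = 1, also after adjustment over the 5 values).

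**Figure D5:**
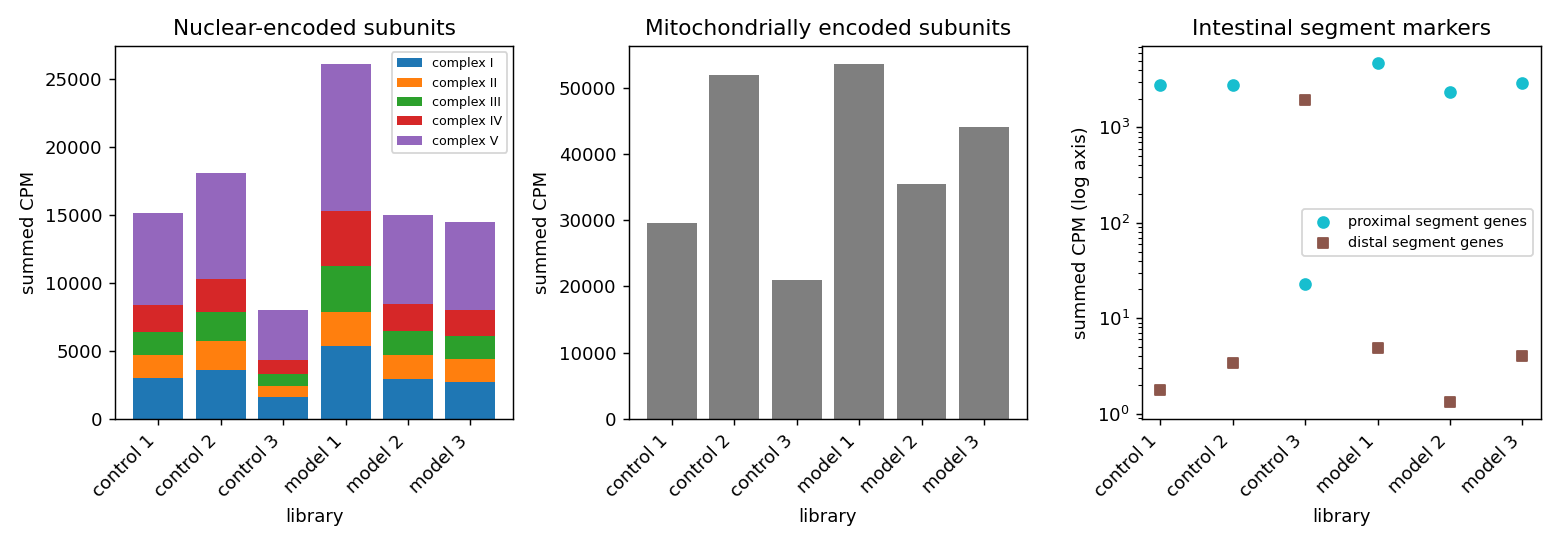
Summed CPM per library of the nuclear-encoded subunits by complex (left), of the 13 mitochondrially encoded subunits (middle) and of the 3 proximal and 3 distal segment marker genes (right, log axis). Nuclear subunits run from 8013 CPM in control 3 to 26116 CPM in model 1, and control 3 is the only library with distal above proximal markers.

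The genes of proteins that build or feed the chain had medians between -0.07 and 0.35, and none was called. Citric acid cycle enzymes, which supply NADH and succinate, had 12 of 14 fold changes above 0 and a median of 0.31. They ranged from -1.02 to 0.79, and in 1 of the 14 all model libraries lay below all control libraries (6.33% of all tested genes). Mdh2, the malate dehydrogenase, was at 1591, 2005 and 278 CPM in control and 3430, 1600 and 1658 CPM in model libraries, and Ogdh, a 2-oxoglutarate dehydrogenase subunit, had a fold change of 0.29 (SE 0.39). Carriers of electrons, nucleotides and phosphate had 11 of 12 above 0 and a median of 0.35, with the ADP/ATP carrier Slc25a5 at 0.64 (SE 0.34) and the phosphate carrier Slc25a3 at 0.65 (SE 0.43). Coenzyme Q synthesis genes had 13 of 13 above 0 and a median of 0.24, with Coq2 at 0.10 (SE 0.29) and Coq9 at 0.23 (SE 0.31). The order of libraries seen in the members was also common here. Control 3 was lowest in 11 of 14 citric acid cycle, 9 of 12 carrier and 11 of 13 coenzyme Q genes (26.8% of all tested genes). Model 1 was highest in 9, 9 and 8 of them (28.5% of all tested genes).

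Assembly factors are counted by complex. For complex I 11 of 16 tested factors were above 0, with a median of 0.11, for complexes II and III 8 of 10 with 0.27, for complex IV 21 of 24 with 0.24, and for complex V 1 of 3 with -0.07. In the same sequence of lists, control 3 was lowest in 9, 8, 21 and 2 factors (26.8% of all tested genes). Model 1 was highest in 10, 8, 16 and 2 (28.5% of all tested genes). Among the most abundant were Dmac2 (0.32, SE 0.33) and Tmem70 (0.33, SE 0.27) of the complex I list, Sdhaf2 (0.22, SE 0.20) and Uqcc1 (-0.03, SE 0.25) for complexes II and III, Coa5 (0.22, SE 0.25) and Lrpprc (-0.06, SE 0.21) for complex IV, and Atpaf2 (-0.07, SE 0.24) and Atpaf1 (-0.20, SE 0.24) for complex V. Among assembly factors the groups did not overlap for Sco1 and Taco1 of complex IV, both higher in model libraries, which makes 2 of the 24 tested genes of that list (4.73% of all tested genes had this order). They did not overlap for Acad9 of complex I either, lower in model libraries, which is 1 of 16 (6.33% of all tested genes). Higd1a, a hypoxia-induced factor of complex IV, was at 33.1, 52.6 and 19.5 CPM in control and at 124, 44.8 and 63.1 CPM in model libraries, with overlapping groups (1.14, SE 0.47, edgeR unadjusted p = 0.0443, adjusted p = 0.851). Sco1, Taco1, Acad9 and Higd1a were named after their values were seen.

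Regulators of mitochondrial biogenesis had fold changes in both directions, from -0.92 to 1.34. Of 19 tested genes 12 were above 0 with a median of 0.03. Control 3 was lowest in 8 (26.8% of all tested genes) and model 1 highest in 6 (28.5% of all tested genes). Esrra, a nuclear receptor that acts with PGC-1 coactivators, was at 323, 337 and 187 CPM in control and at 420, 312 and 326 CPM in model libraries, also lowest in control 3 and highest in model 1. Yy1 was at 132 to 145 CPM in control and 127 to 154 CPM in model libraries (0.03, SE 0.18), and Nrf1 had a fold change of -0.26 (SE 0.19) and Gabpa of 0.02 (SE 0.17). Ppargc1a, the gene of the coactivator PGC-1 alpha, named after its values were seen, was at 40.6, 65.7 and 18.0 CPM in control and at 87.1, 81.1 and 146 CPM in model libraries. All model libraries lay above all control libraries, as in 1 of the 19 genes (4.73% of all tested genes), and the log2 fold change was 1.34 (SE 0.47, edgeR unadjusted p = 0.0230, adjusted p = 0.851), or 1.08 without control 3 and model 1. It did not pass the test over all genes, and any link of Ppargc1a to the level of the subunits was not tested. Tfb1m, a mitochondrial ribosomal RNA methyltransferase gene also named after its values were seen, was lower in all model libraries (0.855 to 1.61 CPM) than in all control libraries (2.04 to 2.46 CPM), with a fold change of -0.76 (SE 0.39), as the only 1 of the 19 with that order (6.33% of all tested genes). The estrogen-related receptor genes Esrrb (-0.92, SE 0.51) and Esrrg (-0.78, SE 0.49), likewise named after their values were seen, also had negative fold changes, with overlapping groups.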

How the data were processed

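RNA of frozen mouse small intestine was poly-A selected, per the labels' protocols, and processed with FastQC, Trimmomatic, STAR and featureCounts on build GRCm39, per the submitters' processing notes. The sources used here do not state versions, annotation, strand or multi-mapping settings, so genes with close copies, processed pseudogenes or overlapping neighbours are uncertain. The authors deposited raw counts, whole numbers per gene and library, and 0 columns were left unmatched to samples by library name. Library pairs within a group differed by more than sampling noise, at 111 to 542.7 in chi-square per degree of freedom, so none was treated as a duplicate.

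Genes were kept by filterByExpr (15904 of 33017, with at least 99.6% of each library's counts; all 77 members passed), scaled by TMM and tested with edgeR 4.0.16 (R 4.3.3), quasi-likelihood with robust dispersion and the group as the only term, with Benjamini-Hochberg adjustment over all tested genes. The biological coefficient of variation, as edgeR names it, was 40.7%. The scripts were tested on simulated data with a smaller spread and larger changes than those of the members. That checks the code and not the power of the test on these libraries. Deviations are log2 CPM (prior count 2) minus the gene's mean. Transcript lengths came from GENCODE M21 (APPRIS principal transcripts) and were matched by symbol for 15586 tested genes and 76 members; that build is GRCm38, so no coordinates of genes are given from it, and promoter positions are those of GRCm38.p6.

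The members and all lists were chosen with earlier results of these data known. Named members are the 2 most abundant per complex, the 8 with the smallest p, the 3 highest and 3 lowest fold changes, and listed core, isoform and near-threshold members (24 in all); from other lists, the 2 most abundant. The values of 1 named member are not reported here. Lengths were first taken as medians over all coding transcripts and changed after implausible values were seen. Alternatives were RLE, upper quartile and size-only scaling, no filter or at least 5 CPM in 3 libraries, DESeq2 1.42.0, limma-voom (limma 3.58.1), a non-robust dispersion, the replicate number as a block, removal of the length trend (lowess, span 0.5) and each library left out, plus 2 pairs of libraries left out, added after seeing the data.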

Additional observations from a re-analysis of the deposited data

How the results depend on the processing

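No setting called a member. DESeq2 called 25 of all genes and every other setting 0, where edgeR gave 765 at an unadjusted p under 0.05. The members' median fold change was 0.24 with library size alone, which moved the median of all genes to -0.21, 0.39 to 0.49 with other scalings, 0.32 with the length trend removed, 0.03 to 0.74 with each library left out, 0.37 without control 3 and model 3, and -0.23 without control 3 and model 1. Both pairs were chosen after seeing the data, and the cause was not tested.

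Among 24 named members 360 of 382 values kept their sign and 22 turned. These values do not include the settings with a pair of libraries left out. Without control 3 and model 1, 0 of the 77 members had a fold change above 0, so nearly all named members turned there. Ndufb2 was 0.03 with RLE and 0.03 with DESeq2. Ndufa4l2 was -0.02 with upper quartile scaling, -0.17 with library size and -0.05 with the length trend removed. Ndufs1 was -0.06, -0.16 and, with at least 5 CPM, -0.02. Cox7a1 was -0.11 with library size. With each library left out Ndufb2 ranged from -0.22 to 0.16, Ndufa4l2 from -0.15 to 0.41, Ndufs1 from -0.19 to 0.14, Cox7a1 from -0.44 to 0.60 and Sdha from -0.08 to 0.49. The Cox7a1 share difference ranged from -5.73 to 1.15 percentage points, the latter without control 1.

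With the replicate number as a block the members' median was 0.46 and 0 were called. Same-numbered libraries had correlations of -0.153, -0.266 and 0.309, and other pairs of a control and a model library -0.345 to 0.482. With 3 libraries per group, these values cannot decide whether the numbers pair them. Counting error limits mainly low members such as Ndufa4l2 and Cox6b2.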
